A study of Mus musculus with 5 samples.

Results

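The suppressor of cytokine signaling (SOCS) genes Socs1 to Socs7 and Cish were examined in droplet single-cell RNA sequencing (scRNA-Seq) of mouse tumors and tumor-draining lymph nodes (TDLNs). The members were chosen by name, from their place in the family and not from their values, and all 8 were found among the 34031 genes listed in the count matrices. The matrices hold 5 reactions, each a droplet run. 3 reactions came from unsorted TDLNs of mice bearing TRAMP-C2 prostate cancer cells, and 2 came from tumors of MC38 colon carcinoma cells, both transplantable lines of C57BL/6 origin, after live CD45+ and CD45- cells had been sorted and combined. All mice were wild-type C57BL/6J males of 8 to 10 weeks that carried subcutaneous tumors and were harvested at day 15. They had received isotype antibodies or dual checkpoint inhibition (CPI, anti-CTLA4 plus anti-PD-1) at days 3, 6, and 9, followed at day 12 by vehicle (DPBS) or by 20 mg/kg of ABT-317, an inhibitor of the kinase JAK1. The 4 treatments were therefore isotype, isotype + ABT-317, CPI, and CPI + ABT-317. Each MC38 reaction pooled the 4 treatments. A hashtag, an antibody carrying a DNA barcode, marked the treatment of a cell, with a different hashtag for each treatment in the 2 MC38 reactions, and the sources used here do not say which mice a hashtag stands for. The deposited key lists isotype, CPI, and CPI + ABT-317 for TDLNs, but hashtag counts were 0 throughout in the TDLN matrices, so treatments were compared in MC38 tumors only.

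Cytokine receptors signal through Janus kinases (JAKs), which phosphorylate STAT transcription factors, and STATs in turn switch on several SOCS genes, so that the pathway produces its own inhibitors. A SOCS protein binds phosphotyrosines through an SH2 domain and recruits a ubiquitin ligase, made of Elongins B and C, Cul5, and a RING protein, through its SOCS box. SOCS1 and SOCS3 can also block the kinase directly. SOCS1 is known as a brake on interferon-γ signaling, SOCS3 as a brake on gp130 and G-CSF receptors, and CISH and SOCS2 as STAT5-induced inhibitors of cytokine and growth hormone receptors, whereas SOCS4 to SOCS7 are better known for their action on receptor tyrosine kinases and are less tightly tied to cytokine induction.

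The promoters of Cish, Socs3, and Socs1 are shown because they hold the letters that STAT and interferon-regulated factors are known to bind, and because these members were called in a comparison of classes or treatments. RefSeq promoters of build GRCm38.p6 matched 4 members, Cish, Socs1, Socs3, and Socs4. The stretches run from 250 bases before the annotated start site, 5′ to 3′ on the gene's strand, and capitals mark each match to the STAT motif TTCNNNGAA (GAS, identical on both strands) or to the core of the interferon-stimulated response element (ISRE core, a pair of GAAA runs with any 2 bases between them, searched on both strands). Start sites are those of RefSeq. For Cish and Socs3 they lie inside the longest extent of the gene in the GENCODE annotation given later, so motif positions hold for the RefSeq start only. The Cish stretch lies at chr9:107296409-107296688 on the plus strand and runs 30 bases past the start site. The Socs3 stretch lies at chr11:117969367-117969616 and the Socs1 stretch at chr16:10785537-10785786, both on the minus strand.
Cish: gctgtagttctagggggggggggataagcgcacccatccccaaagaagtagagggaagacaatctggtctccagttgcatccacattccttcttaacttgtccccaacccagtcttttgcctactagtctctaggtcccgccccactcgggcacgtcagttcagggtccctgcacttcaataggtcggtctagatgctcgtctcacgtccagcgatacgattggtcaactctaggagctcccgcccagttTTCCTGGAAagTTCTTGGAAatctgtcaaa
Socs3: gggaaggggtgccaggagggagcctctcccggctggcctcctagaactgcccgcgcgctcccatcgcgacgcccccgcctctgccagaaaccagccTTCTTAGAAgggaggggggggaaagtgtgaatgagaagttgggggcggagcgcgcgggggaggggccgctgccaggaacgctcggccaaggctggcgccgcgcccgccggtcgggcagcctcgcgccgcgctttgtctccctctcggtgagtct
Socs1: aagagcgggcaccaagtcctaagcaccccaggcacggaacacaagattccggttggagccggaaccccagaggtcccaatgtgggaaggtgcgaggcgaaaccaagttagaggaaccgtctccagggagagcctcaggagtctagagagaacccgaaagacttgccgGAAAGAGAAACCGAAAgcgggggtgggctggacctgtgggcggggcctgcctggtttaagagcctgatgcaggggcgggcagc
Cish held 2 GAS matches, whose first bases lie at the start site and 11 bases after it, and Socs3 held 1, whose first base lies 154 bases before it. Socs1 held 2 ISRE core matches, which overlap each other, and no GAS match. The Socs4 stretch (chr14:47276670-47276919, plus strand) held neither. Of all 32851 mouse promoters of the same table, 8.3% held a GAS match and 0.457% at least 2, and 3.44% held an ISRE core match and 0.225% at least 2. For these shares and for the members, the search covered the full promoter sequences, which run further past the start site than the stretches printed. The motifs were chosen with these sequences in view, and a match is a description of letters only.

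In the GENCODE vM21 annotation of GRCm38, Socs1 lies at chr16:10782240-10785536 and Socs3 at chr11:117966079-117970047, both on the minus strand. Socs2 lies at chr10:95385362-95417180 on the minus strand. Cish lies at chr9:107296026-107302784, Socs4 at chr14:47276931-47296102, Socs5 at chr17:87107679-87137839, and Socs7 at chr11:97362551-97398542, all on the plus strand. Socs3 and Socs7 thus share a chromosome without being neighbors.

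Each value counts captured RNA molecules by their unique molecular identifiers (UMIs). Gene UMIs per reaction were 18055617 to 127052825 in TDLNs and 377184807 to 435031691 in MC38 tumors, of which members took 3365 to 25673 and 69117 to 76174. Each pair of reactions shared 3.16% to 8.76% of the barcodes of the smaller one. Of MC38 barcodes that passed the filters (33762 and 23332), 16981 and 14891 carried exactly 1 hashtag. Several hashtags were called in 14646 and 5908, which were not removed from the class sums. Cells were assigned to classes by marker genes, none of them a member, and all counts of a class were summed within a reaction. A level is given in CPM, the UMIs of a gene scaled to the total of all gene UMIs of that sum. CPM levels are compared within a gene only. C1q macrophages were well covered (6048 and 5715 barcodes), whereas CD8 T cells (152 barcodes in each MC38 reaction), Tregs (50 and 47), mregDCs (CCR7+ mature dendritic cells rich in immunoregulatory molecules, 37 and 25), and conventional dendritic cells (cDCs, 24 and 23) were thin. Intervals are exact Poisson 95% intervals and cover counting error only.

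The class that held most MC38 barcodes, 12523 and 9038, is called the Ptprc-negative unnamed class by its rule, because it had no UMI of Ptprc (CD45) and marker lists below set limits, the limit for collagens being the highest. It did carry fibroblast transcripts, with Col3a1 at 948 and 938 CPM and Dcn at 630 and 717 CPM. Its carcinoma keratins were near 0, with Krt8 at 0.109 and 0.0987 CPM and Krt18 at 0 and 0 CPM, so it was given no cell type name although the sort and the tumor line make cancer cells a possible content. T cell transcripts were nearly absent from it, with Cd3e at 0.425 and 0.292 CPM. In TDLNs, most barcodes held transcripts of T and B cells together and could not be assigned to a class. The TDLN classes therefore hold few barcodes (195 and 278 B cells and 41 and 56 CD4 T cells in reactions 1 and 2). Reaction 3, with 3 and 2, was left out of all tests, although its naive CD8 T cells and cytotoxic lymphocytes held 23 barcodes each.

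In MC38 tumors, the members that cytokines induce were unevenly spread over cell classes. Cish was a T cell transcript, Socs2 was highest in mregDCs and endothelial cells, Socs3 was highest in Arg1 myeloid cells and C1q macrophages, and Socs1 was spread over nearly all classes. Socs4, Socs5, Socs6, and Socs7 had low levels in most classes.

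Cish, which encodes the STAT5-induced inhibitor CISH, stood at 107.9 and 136.1 CPM in CD8 T cells of reactions 1 and 2 (28 and 36 UMIs) and at 106.8 and 236.7 CPM in Tregs (14 and 22 UMIs). CD4 T cells had 177 and 218 CPM, from 3 and 5 UMIs in 12 and 15 barcodes, and T cells of no assigned subset had 88.4 and 135 CPM. CD8 T cells, Tregs, and T cells of no assigned subset overlapped, and the few UMIs in CD4 T cells give them no place in the order. NK cells had 57.3 and 0 CPM, from 19 and 20 barcodes, which is below the 20 barcodes per reaction needed for a test against CD8 T cells. Monocytes had 0 and 37.2 CPM, the latter from 5 UMIs (interval 12.1 to 86.9). Mast cell, B cell, plasmacytoid dendritic cell, and keratin-positive gates held at most 3 barcodes each, too few for a level. The other classes with at least 20 barcodes were lower than the T cell classes. Arg1 myeloid cells, named for arginase 1, had 15.1 and 11.9 CPM, C1q macrophages 6.97 and 7.04 CPM, and fibroblasts 5.26 and 4.05 CPM. The Ptprc-negative unnamed class had 0.183 and 0.202 CPM, from 47 and 49 UMIs in all. Neutrophils had 0 UMIs of Cish in both reactions, where 3 counts, the limit used here for a 0, would be 13.4 and 31.7 CPM.

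Socs2, an inhibitor of growth hormone and other receptors, reached 136.2 CPM (27 UMIs, interval 89.8 to 198) and 181.2 CPM (32 UMIs, 124 to 256) in mregDCs. Endothelial cells came next with 82.0 and 70.6 CPM (23 and 20 UMIs), below both mregDC values. Tregs had 22.9 and 43.0 CPM and CD8 T cells 19.3 and 18.9 CPM. Fibroblasts, with 12.7 and 16.4 CPM, and pericytes, with 11.3 and 8.48 CPM, lay lower still. Socs2 was scarce in C1q macrophages (2.21 and 1.93 CPM), Arg1 myeloid cells (3.09 and 3.44 CPM), and the Ptprc-negative unnamed class (1.21 and 1.13 CPM). In cDCs (cDC1 and cDC2 together) 0 and 1 UMIs were counted, where the limit of 3 counts for the 0 is 21.0 CPM, and the second reaction had 5.27 CPM.

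Socs3, the feedback inhibitor of gp130 cytokines, had its highest levels in Arg1 myeloid cells and C1q macrophages. Arg1 myeloid cells had 317.6 and 375.3 CPM (822 and 982 UMIs) and C1q macrophages 288.7 and 320.9 CPM (7585 and 9800 UMIs), and the ranges of these 2 classes overlapped. Monocytes followed with 152.8 and 253.1 CPM, and cDCs with 160.7 and 136.9 CPM. Pericytes had 120.2 and 157.8 CPM and neutrophils 111.3 and 137.4 CPM, which overlapped those of cDCs. Fibroblasts (94.5 and 97.0 CPM), endothelial cells (82.0 and 98.9 CPM), and mregDCs (80.7 and 96.3 CPM) could not be put in order. CD8 T cells had 34.7 and 71.8 CPM, and Tregs 61.0 and 10.8 CPM from 8 and 1 UMIs. The Ptprc-negative unnamed class had 28.1 and 33.2 CPM, below every myeloid and stromal class.

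Socs1, the interferon-γ feedback inhibitor, covered a narrower range. Tregs had 122 CPM (16 UMIs, interval 69.7 to 198) and 86.1 CPM (8 UMIs), mregDCs 75.7 and 90.6 CPM (15 and 16 UMIs), and CD8 T cells 50.1 and 75.6 CPM (13 and 20 UMIs). The Ptprc-negative unnamed class had 49.9 and 57.7 CPM, from 12802 and 14027 UMIs. Fibroblasts had 44.3 and 39.7 CPM, Arg1 myeloid cells 40.6 and 40.1 CPM, and C1q macrophages 29.6 and 33.7 CPM. All class sums include barcodes with none or several hashtags. Of 4071 and 4420 C1q macrophages with exactly 1 hashtag, the 3490 and 3845 under isotype had 19.1 and 24.9 CPM, below both class values. The part of the other barcodes in the class levels was not tested. Tregs overlapped mregDCs, CD8 T cells the Ptprc-negative unnamed class, and fibroblasts Arg1 myeloid cells. CD8 T cells and mregDCs nearly met, at 75.6 and 75.7 CPM. The unnamed class lay above fibroblasts, and Arg1 myeloid cells above C1q macrophages, in both reactions. The latter difference did not pass its test, given below. It also did not hold within each treatment. Within isotype, Arg1 myeloid cells were lower, at 9.15 and 9.10 CPM against 19.1 and 24.9 CPM in C1q macrophages. Within CPI + ABT-317 they were higher, at 88.5 and 120.9 against 52.9 and 77.0 CPM. Pericytes differed between the reactions by more than counting error, with 33.9 CPM (24 UMIs) in the first and 120.5 CPM (71 UMIs) in the second, so they had no stable place.

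**Figure D1:**
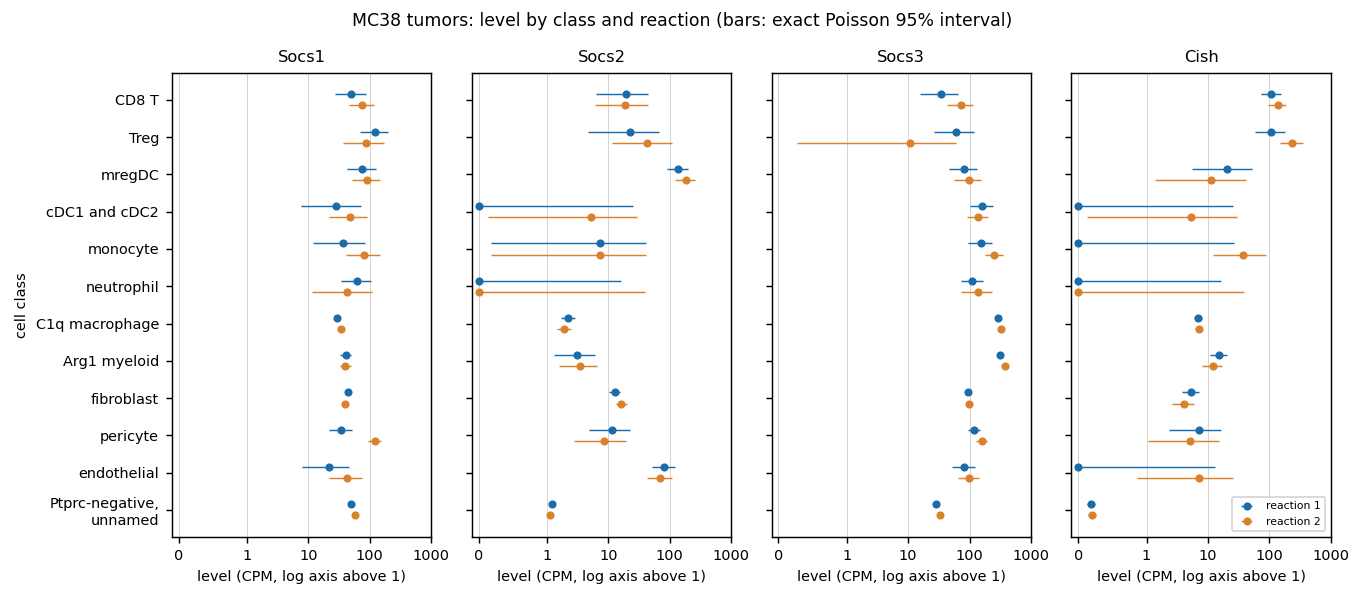
Levels of Socs1, Socs2, Socs3, and Cish in 12 cell classes of MC38 tumors, as CPM on a log axis that is linear below 1, with 1 point per reaction and bars for the exact Poisson 95% interval. Cish peaks in CD8 T cells and Tregs (106.8 to 236.7 CPM), Socs2 in mregDCs (136.2 and 181.2 CPM), and Socs3 in Arg1 myeloid cells and C1q macrophages (288.7 to 375.3 CPM), whereas Socs1 varies less.

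Socs4, Socs5, Socs6, and Socs7 had no level above 43.8 CPM in classes of at least 20 barcodes. Socs5, which acts on the EGF receptor and on cytokine receptors, had higher values in pericytes (43.8 and 28.8 CPM) and endothelial cells (24.96 and 31.8 CPM), and lower ones in C1q macrophages (9.14 and 6.94 CPM) and Arg1 myeloid cells (7.34 and 5.35 CPM). Thin classes could not be placed, with 34.93 and 0 CPM in cDCs (5 and 0 UMIs) and 15.25 and 0 CPM in Tregs (2 and 0 UMIs). Socs6, a regulator of receptor tyrosine kinases, had 29.0 and 24.98 CPM in C1q macrophages and 16.0 and 15.7 CPM in fibroblasts. Pericytes, with 24.0 and 18.7 CPM, and endothelial cells, with 35.7 and 3.53 CPM from 10 and 1 UMIs, had intervals too wide to place. Socs4, a close relative of Socs5, had 31.2 and 31.7 CPM in neutrophils from 7 and 3 UMIs, 15.8 and 12.0 CPM in C1q macrophages, and 9.52 and 7.18 CPM in the Ptprc-negative unnamed class. Socs7, which is linked to insulin signaling, had 17.4 and 14.5 CPM in that class, 16.1 and 12.8 CPM in C1q macrophages, and 13.5 and 13.0 CPM in Arg1 myeloid cells. Socs4, Socs5, Socs6, and Socs7 did not pass the filter on low counts in the comparison of classes, so the order of their levels was not tested.

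**Figure D2:**
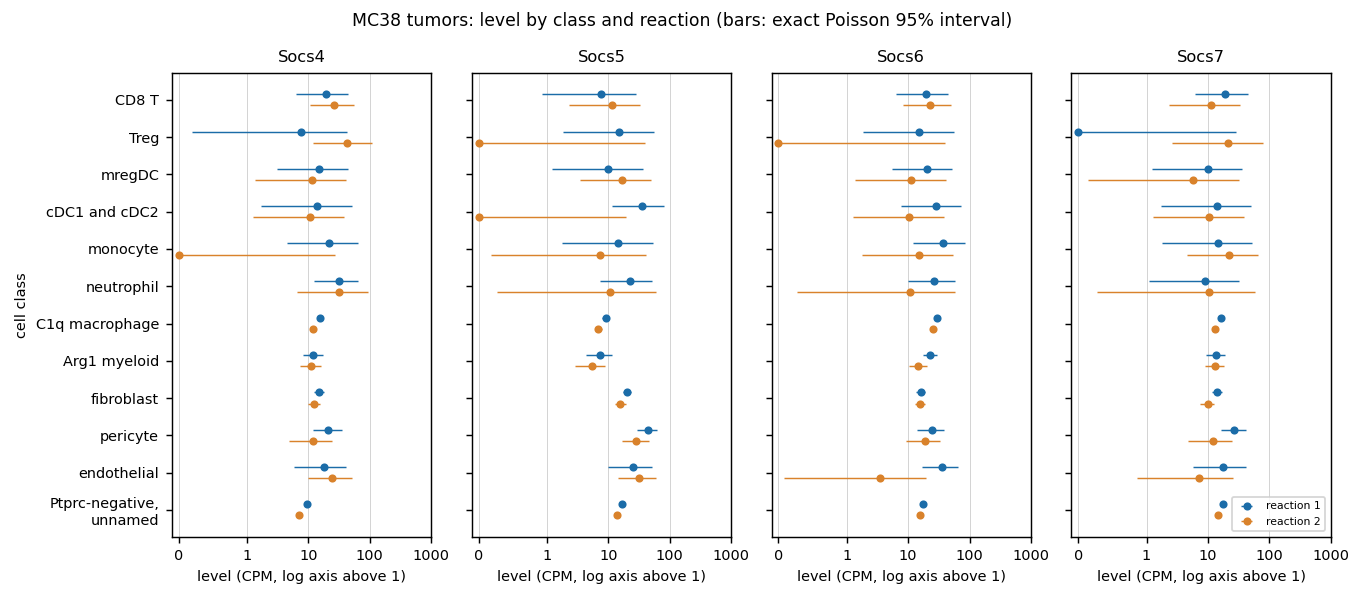
Levels of Socs4, Socs5, Socs6, and Socs7 in the same 12 classes of MC38 tumors, as CPM on a log axis that is linear below 1, with 1 point per reaction and bars for the exact Poisson 95% interval. Socs5 stands at 5.35 and 7.34 CPM in Arg1 myeloid cells and at 28.8 and 43.8 CPM in pericytes, and in thin classes the bars span more than the differences between classes.

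Pairs of related classes were then compared in 1 fit over all MC38 classes, in which 7455 genes and 4 members (Socs1, Socs2, Socs3, and Cish) were tested by edgeR's quasi-likelihood test with Benjamini-Hochberg adjustment. The replicates are 2 droplet runs, and nothing says whether their cells came from separate mice, so p-values measure only the spread between these runs, which may be technical. Differences are log2 with their standard error (SE). Each class sum pools all treatments, and treatments fill the classes unequally. Of single-hashtag barcodes in reactions 1 and 2, CPI took 100 and 113 of the CD8 T cells, against 2 and 4 for isotype and 0 for each ABT-317 arm. CPI also took 776 and 632 of the fibroblasts, against 27 and 13 for isotype.

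mregDCs differed from cDCs in Socs2. With 59 UMIs in mregDCs against 1 in cDCs, the ratio of levels was 52.4, with a counting interval of 9.05 to 2.11e+03. The fitted difference was 5.74 ± 0.81 (SE) on the log2 scale (edgeR quasi-likelihood, adjusted p = 0.000177). 1 of the 4 tested members was called, against 2.05% of all genes tested. Socs1 (1.13 ± 0.65, adjusted p = 0.565) and Socs3 (-0.71 ± 0.36, adjusted p = 0.483) did not pass the edgeR test, nor did Cish (2.45 ± 1.56). Among single-hashtag mregDCs, Socs2 had 136.1 and 215.7 CPM under isotype (7 UMIs in each reaction, 13 and 9 barcodes) and 289.8 and 496.1 CPM under CPI (10 and 17 UMIs, 10 and 8 barcodes), too few barcodes for a test of the treatment.

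Of the pathway around Socs2, Stat4, which encodes a transcription factor of interleukin-12 signaling, was higher in mregDCs by 2.38 ± 0.48 on the log2 scale. 2 of 8 genes of a list of interferon-induced genes were higher as well, namely the chemokine gene Cxcl10 by 1.57 ± 0.32 and Cd274, which encodes PD-L1, by 1.54 ± 0.31. The interferon-induced list had a median difference of 0.98, against -0.02 for all genes. The only called gene of the STAT5 target list was Socs2 itself, which that list holds together with Cish.

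Endothelial cells exceeded fibroblasts in Socs2, by 4.21 times (log2 difference fibroblast minus endothelial -2.07 ± 0.35, edgeR quasi-likelihood, adjusted p = 4.25e-05). This was 1 of 4 members called, in a comparison in which 36.3% of all genes passed. Within CPI alone, Socs2 had 187.4 and 78.1 CPM in endothelial cells (29 and 28 barcodes) and 16.8 and 17.1 CPM in fibroblasts. Socs1 (0.75 ± 0.46), Socs3 (0.42 ± 0.26), and Cish (0.75 ± 1.14) did not pass. Of the pathway, 2 of 3 Janus kinases were lower in fibroblasts, Jak3 with -3.27 ± 0.43 and Jak2 with -1.34 ± 0.27, as were the receptor chains Csf2rb (-2.97 ± 0.49) and Il2rg (-2.85 ± 0.29) and the interferon-induced GTPase gene Gbp4 (-2.61 ± 0.43). The growth hormone receptor gene Ghr was higher, with 1.78 ± 0.22. Stat5a was not detected in endothelial cells and is given no fold. Jak2 and Ghr, like each pathway gene named beyond the 4 largest differences of a comparison, were chosen after their values were seen.

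Arg1 myeloid cells had more Cish than C1q macrophages (log2 difference 1.12 ± 0.32, 2.18-fold, edgeR quasi-likelihood, adjusted p = 0.0182), 1 of 4 members called where 13.5% of all genes passed. The call was lost with DESeq2 (adjusted p = 0.103) and with single-hashtag barcodes (adjusted p = 0.0825, an alternative chosen after seeing the data). Within isotype the classes overlapped, at 8.00 and 5.79 CPM in Arg1 myeloid cells and 5.47 and 7.102 CPM in C1q macrophages. Within CPI + ABT-317 they did not, at 23.1 and 29.6 against 13.6 and 11.0 CPM. The summed level of the T cell list (Cd3 and T cell receptor genes) was 24.7 and 12.6 CPM in Arg1 myeloid cells and 22.0 and 20.3 CPM in C1q macrophages, against 2866 and 3327 CPM in CD8 T cells. Socs1 (0.53 ± 0.20, adjusted p = 0.0796) and Socs3 (0.36 ± 0.17, adjusted p = 0.176) did not pass the edgeR test, nor did Socs2 (0.84 ± 0.47), although DESeq2 called Socs3 (0.35, adjusted p = 0.00574).

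Around Cish and Socs3, 3 of 6 tested ligand genes were higher in Arg1 myeloid cells, Il6 by 2.15 ± 0.32, Il10 by 0.94 ± 0.20, and Osm by 0.88 ± 0.17. Among 21 receptor chains, 4 were higher, with Il7r at 1.69 ± 0.18, and 2 were lower, with the oncostatin M receptor gene Osmr at -1.72 ± 0.57. Of 8 interferon-induced genes, 2 were higher and 1 was lower, the chemokine gene Cxcl9 (-0.96 ± 0.26).

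In 3 comparisons no member was called by edgeR. C1q macrophages had more Socs3 than monocytes by 0.70 ± 0.25 at an unadjusted p of 0.0087 (edgeR quasi-likelihood, adjusted p = 0.109), where 5.12% of all genes passed and this was the 1 member at an unadjusted p under 0.05. DESeq2 called it (adjusted p = 0.0179). Socs1 (-0.79 ± 0.56), Socs2 (-1.72 ± 1.31), and Cish (-1.28 ± 0.90) did not pass there. The T cell list stood at 174.7 and 312.7 CPM in monocytes, and its part in the difference was not tested. Neutrophils had less Socs3 than monocytes by a difference of -0.82 ± 0.34 (edgeR quasi-likelihood, adjusted p = 0.149), where 7.43% of genes passed and 2 members had an unadjusted p under 0.05. The second was Cish, which like Socs2 has no fold because neutrophils held none, and Socs1 differed by -0.12 ± 0.70. DESeq2 called no member there. Tregs minus CD8 T cells gave of 0.72 ± 0.56 for Socs1 (adjusted p = 0.787), 0.66 ± 0.79 for Socs2, -0.46 ± 0.55 for Socs3, and 0.36 ± 0.42 for Cish (adjusted p = 0.894, all by edgeR). No member had an unadjusted p under 0.05 there, DESeq2 called none, and 0.778% of genes passed. The sums held 8 to 36 UMIs of Socs1 or Cish, so the lack of a call does not show equal levels. The size of difference that could be detected at this depth was not tested.

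Around these members, Tregs were higher than CD8 T cells in Stat3 (1.03 ± 0.21), in Il2ra (2.18 ± 0.39), the interleukin-2 receptor chain that also marks Tregs, and in the STAT5 targets Bcl2l1 (1.58 ± 0.34) and Pim1 (1.38 ± 0.26). That made 3 of 7 STAT5 targets, with Il2ra among them, and neither Cish nor Socs2, which are in that list. Il2ra is in the Treg marker list, so its difference may follow from how the class was defined.

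Over the 26 sums of 13 classes and 2 reactions, each member was matched to the genes of most similar level by Pearson correlation of log2(CPM + 1), as a description across sums that share libraries. Socs3 was closest to Zfp36 (r = 0.93), the gene of an mRNA-decay factor, then to Pilra (0.9) and Pld4 (0.89). Cish was closest to Shisa5 (0.87), to Sh2d1a (0.87), which encodes the adaptor SAP of T and NK cells, and to Pdcd1 (0.86), which encodes PD-1. Socs2 was closest to Sel1l (0.84) and Serpinb9 (0.8). Socs1 had weaker matches, with Tapbpl at 0.69 and Hopx at 0.68. Among the low members, Socs6 was closest to Spire1 (0.87), Socs5 to Ipo9 (0.86), Socs7 to Lnpk (0.85), and Socs4 to Dcaf1 (0.84).

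In TDLNs, Socs1 was lower in B cells than in every T cell class. B cells had 6.79 and 12.0 CPM in reactions 1 and 2 (3 and 7 UMIs), CD4 T cells 27.5 and 93.4 CPM (3 and 13 UMIs), Tregs 80.9 and 75.4 CPM (7 and 17 UMIs), naive CD8 T cells 68.9 and 47.6 CPM, and cytotoxic lymphocytes 66.4 and 55.6 CPM. Both B cell values lay below all T cell values, and the T cell classes overlapped. Against CD4 T cells the difference was -2.77 ± 0.63, or 6.82-fold lower in B cells (edgeR quasi-likelihood, adjusted p = 0.00152). This was 1 of 6 members tested, in a comparison in which 17.1% of the 7599 genes tested passed. All TDLN barcodes together, most of them mixed, had 40.9, 44.6, and 39.3 CPM of Socs1 in the 3 reactions.

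Socs3 in B cells (27.2 and 17.2 CPM) also lay below CD4 T cells (36.7 and 64.6 CPM), Tregs (46.2 and 44.3 CPM), naive CD8 T cells (41.3 and 47.6 CPM), and cytotoxic lymphocytes (58.3 and 63.5 CPM). The difference from CD4 T cells was -1.34 ± 0.50 and did not pass (edgeR quasi-likelihood, adjusted p = 0.0642). Cytotoxic lymphocytes exceeded naive CD8 T cells in Socs3 by 0.47 ± 0.21 at an unadjusted p of 0.0357, which did not pass adjustment (edgeR, adjusted p = 0.662). That comparison called 0 of 6 members by edgeR, with 1 at an unadjusted p under 0.05, and 0 by DESeq2, against 0.711% of all genes. The other 5 members gave differences of -0.33 ± 0.26 for Socs4 to 0.45 ± 0.58 for Socs5, with Socs1 at 0.15 ± 0.24, Cish at 0.26 ± 0.87, and Socs6 at -0.04 ± 0.43.

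Socs4 was of a different shape, with 54.3 and 54.9 CPM in B cells and 28.7 to 49.4 CPM in the T cell classes of reactions 1 and 2. B minus CD4 T cells gave 0.38 ± 0.47, so the difference was within its error. Cish was at 57.8 and 31.0 CPM in Tregs (5 and 7 UMIs) and at or below 15.1 CPM in the other TDLN classes, with 11.5 and 15.1 CPM (16 and 50 UMIs) in T cells of no assigned subset. Tregs minus CD4 T cells gave 1.56 ± 1.08 for Cish (edgeR, adjusted p = 0.675), and that comparison called 0 of 6 members by edgeR, none at an unadjusted p under 0.05 and none by DESeq2, against 2.18% of all genes. Socs5 gave 2.51 ± 1.43 there, from 0 to 8 UMIs per sum, and Socs1, Socs3, Socs4, and Socs6 gave -0.37 to 0.11. For B minus CD4 T cells, Socs5 (2.32 ± 1.31), Socs6 (-0.52 ± 0.87), and Cish (-1.65 ± 1.43) did not pass. Socs5 had 31.7 and 13.7 CPM in B cells and 0 to 35.5 CPM in the T cell classes of those reactions. Socs2 and Socs7 were below the filter on low counts, with 4.597 to 7.92 CPM and 9.75 to 13.0 CPM over all barcodes of the 3 reactions. In reactions 1 and 2, Socs2 had 8.1 and 15.3 CPM in cytotoxic lymphocytes (5 and 25 UMIs) and 2.3 and 0 CPM in naive CD8 T cells (1 and 0 UMIs). Tregs had 0 and 22.2 CPM of Socs2 (0 and 5 UMIs), and these differences were not tested. The cytotoxic lymphocyte sums also held mregDC markers, with Fscn1 at 29.15 and 81.2 CPM and Ccl22 at 9.72 and 16.5 CPM. Naive CD8 T cells had 0 and 1.90 CPM of Fscn1 and 2.30 and 0.952 CPM of Ccl22. Ccl5 is in the marker lists of both cytotoxic lymphocytes and mregDCs. The part of mregDC RNA in the Socs2 level of cytotoxic lymphocytes was not tested. Socs6 had 15.3 to 17.3 CPM over all barcodes.

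Other pathway genes also differed between B and CD4 T cells, a comparison in which 17.1% of all genes passed. Of 15 receptor chains, 7 were lower in B cells, led by Il7r (-5.21 ± 0.27) and Il2rb (-4.27 ± 0.74), and Il10ra was higher (4.47 ± 0.77). Stat5a (-3.33 ± 0.48) and Stat5b (-2.58 ± 0.23) were lower. Jak1 (-0.71 ± 0.16) was lower. 3 of 6 interferon-induced genes were lower in B cells, namely Iigp1 (-3.04 ± 1.04), Gbp4 (-2.38 ± 0.64), and Irf1 (-1.35 ± 0.28), with a list median of -1.52 against -0.01 for all genes. TDLN Tregs were higher than CD4 T cells in Il2ra (4.78 ± 0.83) and Il2rb (1.47 ± 0.40) and lower in Il7r (-0.78 ± 0.19), the 3 of 15 receptor chains called. Il2ra is in the Treg marker list, so its difference may follow from the class definition. Cytotoxic lymphocytes were higher than naive CD8 T cells in Il2rb (1.03 ± 0.17), the 1 called gene of all pathway lists there.

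**Figure D3:**
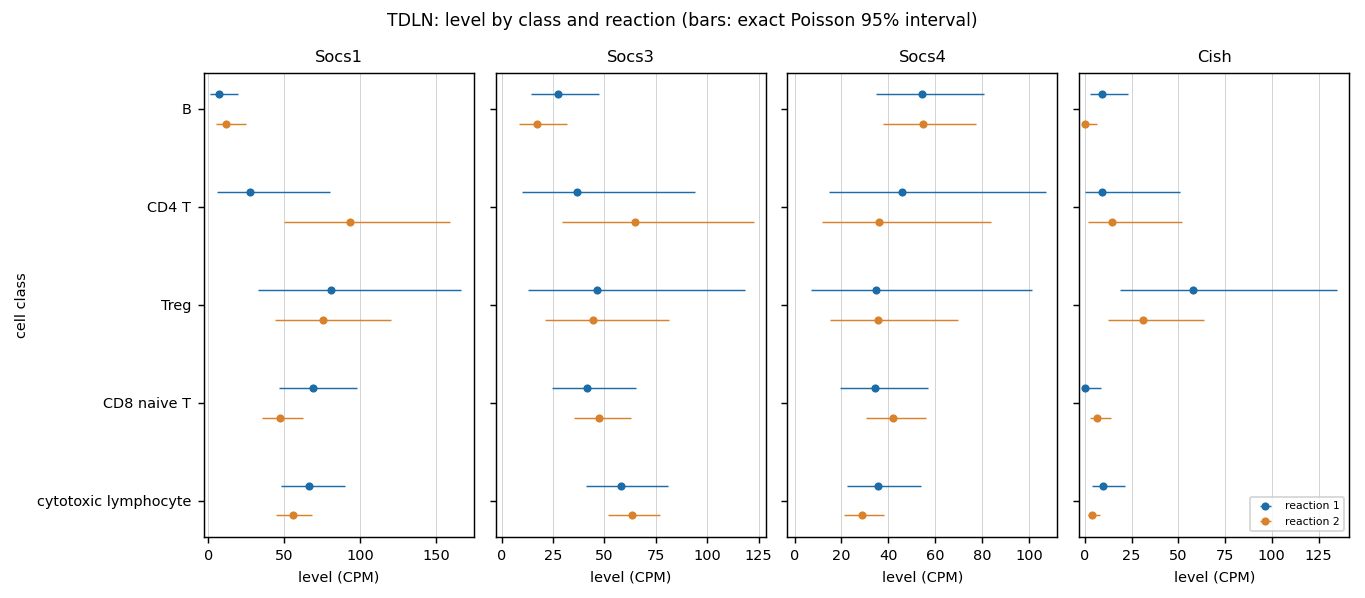
Levels of Socs1, Socs3, Socs4, and Cish in 5 cell classes of TDLN reactions 1 and 2, in CPM, with 1 point per reaction and bars for the exact Poisson 95% interval. Socs1 in B cells (6.79 and 12.0 CPM) lies under all T cell points, Socs4 in B cells stands at 54.3 and 54.9 CPM, and Cish is highest in Tregs (57.8 and 31.0 CPM).

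Treatments could be tested in 2 MC38 classes that held at least 20 single-hashtag barcodes in each of the 8 sums of treatment and reaction, C1q macrophages and the Ptprc-negative unnamed class. The CPI hashtag was also the least separated from its background, with a mean natural log of count + 1 of 4.01 against 2.95 in reaction 1 and 3.64 against 2.44 in reaction 2 (SD of positive barcodes 1.28 and 1.38), and the share of wrongly called barcodes was not tested. CPI was the smallest group in both classes, with 118 and 114 macrophages against 3490 and 3845 for isotype, and with 68 and 31 unnamed barcodes against 3593 and 3512. The comparisons CPI minus isotype and CPI + ABT-317 minus CPI share the CPI sums, and CPI minus isotype and isotype + ABT-317 minus isotype share the isotype sums. Their values are therefore given side by side and are not independent. T cell classes could not be tested by treatment because almost no T cell barcode with exactly 1 called hashtag fell in the ABT-317 arms. T cell barcodes with none or several hashtags have no treatment here, so these counts do not measure T cell numbers. The paper states that hashtags were equally represented and compared CD8 T cells between CPI and CPI + ABT-317. Its assignment of T cells to treatments therefore differed from the calls used here. Single-hashtag barcodes in reactions 1 and 2 numbered 10415 and 9226 for isotype but 1987 and 1589 for CPI. The background of the CPI + ABT-317 hashtag, 4.30 and 4.03, lay above the mean of CPI-positive barcodes. The effect of this on the treatment comparisons was not tested.

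Socs1 was higher under CPI than under isotype in both classes, and its levels under CPI + ABT-317 also exceeded those under isotype. In C1q macrophages, isotype gave 19.1 and 24.9 CPM (234 and 427 UMIs), isotype + ABT-317 23.4 and 15.5 CPM (21 and 14 UMIs), CPI 43.0 and 80.4 CPM (10 and 20 UMIs), and CPI + ABT-317 52.9 and 77.0 CPM (39 and 91 UMIs). All 4 values from mice given CPI lay above all 4 from mice given isotype. CPI minus isotype was 1.48 ± 0.33, or 2.79-fold (edgeR quasi-likelihood, adjusted p = 0.00068), with 1.13 in reaction 1 and 1.65 in reaction 2. ABT-317 after CPI gave a difference of 0.08 ± 0.31 from CPI (adjusted p = 0.905), and ABT-317 after isotype gave -0.22 ± 0.26 from isotype. The SE of 0.31 leaves room for a change of Socs1 in either direction.

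In the Ptprc-negative unnamed class, Socs1 stood at 42.0 and 51.0 CPM under isotype (2720 and 4180 UMIs) and at 44.5 and 49.3 CPM under isotype + ABT-317 (1930 and 2418 UMIs). CPI gave 100 and 90.6 CPM (120 and 80 UMIs), and CPI + ABT-317 gave 77.3 and 87.9 CPM (2333 and 3614 UMIs). The 4 values with CPI again lay above the 4 without it. CPI minus isotype was 0.92 ± 0.12, or 1.89-fold (edgeR quasi-likelihood, adjusted p = 6.83e-06), with 1.08 and 0.72 in the 2 reactions. CPI + ABT-317 minus CPI was -0.08 ± 0.11 (adjusted p = 0.757). That difference became 0.38 (edgeR, adjusted p = 0.00282) when each barcode was given the hashtag that led over the others in place of requiring exactly 1, so its direction depends on how hashtags are read. The summed level of the fibroblast list in this class was 971.9 and 797.7 CPM under CPI and 1527 and 1420 CPM under CPI + ABT-317, against 2034 and 2139 CPM under isotype and 1561 and 1637 CPM under isotype + ABT-317. The Arg1 myeloid list (Arg1, Spp1, and Hilpda) was 243.9 to 362.6 CPM in the 4 sums with CPI and 172.5 to 196 CPM in the 4 without it. The part of these shifts in the Socs1 difference was not tested.

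Arg1 myeloid cells had too few barcodes for a test in all 4 treatments, but isotype (230 and 271 barcodes) and CPI + ABT-317 (66 and 87) could be set side by side. Socs1 was at 9.15 CPM (8 UMIs, interval 3.95 to 18.02) and 9.10 CPM (11 UMIs, 4.54 to 16.3) under isotype, and at 88.5 CPM (23 UMIs, 56.1 to 133) and 120.9 CPM (45 UMIs, 88.2 to 162) under CPI + ABT-317. The intervals did not overlap in either reaction. The ratio of levels was 9.67 (counting interval 4.18 to 25) in reaction 1 and 13.3 (6.77 to 28.5) in reaction 2. Socs3 gave ratios of 0.932 (0.732 to 1.18) and 0.799 (0.652 to 0.973), and Cish gave 2.88 (0.801 to 10) and 5.1 (1.81 to 15.5). With 2 and 5 UMIs under CPI alone, Socs1 was at 34.8 and 110.2 CPM there, and with 1 UMI in each reaction it was at 13.7 and 11.6 CPM under isotype + ABT-317.

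**Figure D4:**
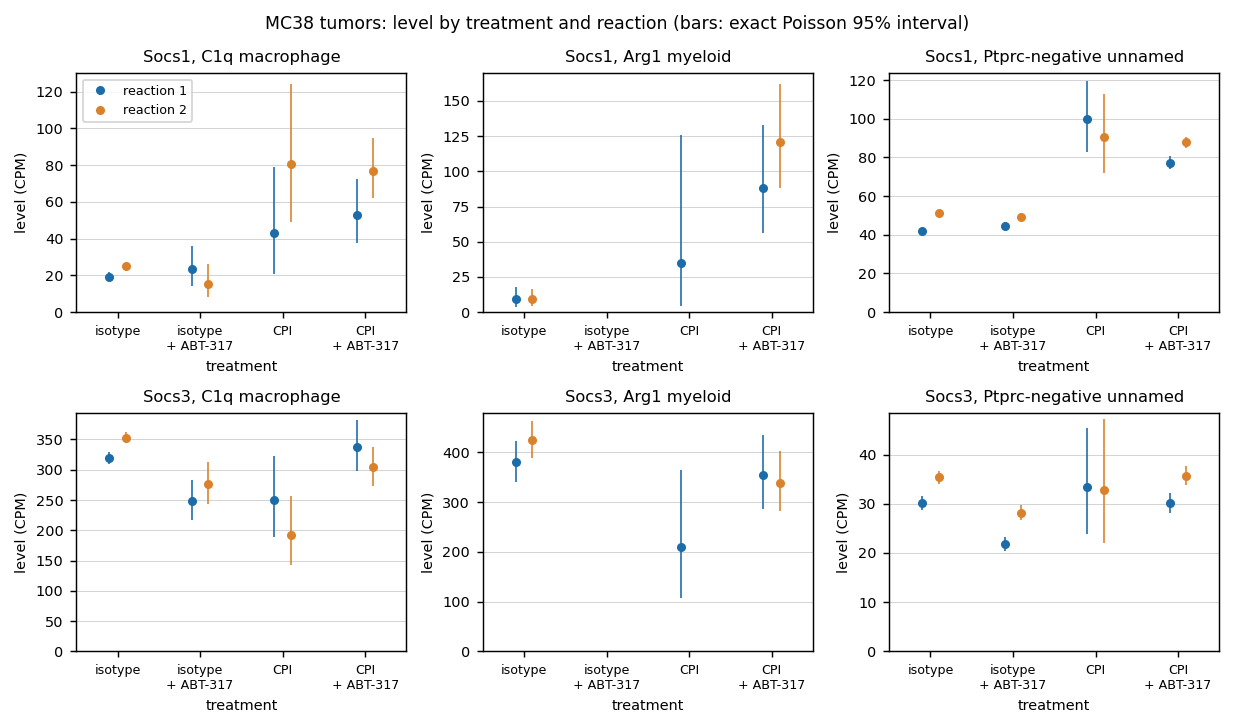
Levels of Socs1 (upper row) and Socs3 (lower row) by treatment in C1q macrophages, Arg1 myeloid cells, and the Ptprc-negative unnamed class of MC38 tumors, in CPM, with 1 point per reaction, bars for the exact Poisson 95% interval, and no point for sums of fewer than 20 barcodes. In C1q macrophages and the Ptprc-negative unnamed class, Socs1 is higher in both treatments with CPI than in both without it, whereas Socs3 in C1q macrophages is highest under CPI + ABT-317 in reaction 1 (337.8 CPM) and under isotype in reaction 2 (352.8 CPM), and lowest under CPI in reaction 2 (193 CPM).

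Socs3 in C1q macrophages was lower under CPI than under isotype. Isotype gave 319.9 and 352.8 CPM (3922 and 6060 UMIs), isotype + ABT-317 248.4 and 277.1 CPM (223 and 251 UMIs), CPI 249.5 and 193 CPM (58 and 48 UMIs), and CPI + ABT-317 337.8 and 304.5 CPM (249 and 360 UMIs). Both CPI values and both isotype + ABT-317 values lay below both isotype values, and CPI + ABT-317 overlapped isotype. CPI minus isotype was -0.63 ± 0.15, or 1.55-fold lower (edgeR quasi-likelihood, adjusted p = 0.00133), with -0.40 in reaction 1 and -0.91 in reaction 2, so that the size rests on which reaction is read. Isotype + ABT-317 minus isotype was -0.40 ± 0.09, or 1.32-fold lower (edgeR quasi-likelihood, adjusted p = 0.0113), and CPI + ABT-317 minus CPI was 0.53 ± 0.16 (edgeR quasi-likelihood, adjusted p = 0.017).

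The effect of ABT-317 on Socs3 in C1q macrophages differed between mice given CPI and mice given isotype, by 0.93 ± 0.18 on the log2 scale (edgeR interaction term, adjusted p = 0.000303), with 0.89 and 1.06 in the 2 reactions. This interaction passed in each alternative that allows a test, whereas CPI + ABT-317 minus CPI did not pass with DESeq2 (adjusted p = 0.0586), with leading hashtags (0.27, adjusted p = 0.141), or in barcodes of 1500 to 6000 UMIs (0.46, adjusted p = 0.141). Isotype + ABT-317 minus isotype did not pass with DESeq2 (adjusted p = 0.117). Without the replicate block, the edgeR adjusted p was 0.0713 for CPI + ABT-317 minus CPI and 0.919 for isotype + ABT-317 minus isotype. Median UMIs per macrophage were 1545 and 1865 under CPI, below 2973 to 4431 under the other treatments.

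Marker lists of other cells moved with CPI in the macrophage sums. The DC list, whose gene H2-Ab1 encodes an MHC class II chain that macrophages also express, stood at 4852 and 4776 CPM under CPI and 3860 and 4509 CPM under CPI + ABT-317, against 1602 to 2514 CPM in the 4 sums without CPI, and so was split by treatment as Socs1 was. The cDC2 list stood at 391.5 and 510.6 CPM under CPI and 228.3 to 286.3 CPM elsewhere, while the C1q list was lower under CPI, at 10090 and 10690 CPM against 12720 to 16470 CPM. The neutrophil list stood at 77.4 and 52.3 CPM under CPI and at 17.7 to 29.4 CPM under the other treatments. The T cell list stood at 12.9 and 24.1 CPM under CPI and at 0 to 8.14 CPM elsewhere. Without barcodes that held any UMI of the T cell list, CPI minus isotype was 1.4 for Socs1 (edgeR, adjusted p = 0.00243) and -0.6 for Socs3 (edgeR, adjusted p = 0.00333). The parts of dendritic cell and neutrophil RNA in these differences were not tested. The Arg1 myeloid list in C1q macrophages moved with ABT-317 instead, from 806.2 and 961.8 CPM under isotype to 1258 and 1222 CPM under isotype + ABT-317, the comparison in which Socs3 was lower, and its part was not tested. Depth was held only by the window of UMIs, within which Socs1 gave 1.6 and Socs3 -0.55. Both of these alternatives were chosen after seeing the data.

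In the Ptprc-negative unnamed class, Socs3 was low under ABT-317 without CPI. It had 30.1 and 35.4 CPM under isotype, 21.8 and 28.2 CPM under isotype + ABT-317, 33.3 and 32.9 CPM under CPI, and 30.2 and 35.7 CPM under CPI + ABT-317. The isotype + ABT-317 values were the lowest of each reaction. Isotype + ABT-317 minus isotype was -0.33 ± 0.05, or 1.26-fold lower (edgeR quasi-likelihood, adjusted p = 2.44e-05). Socs6 fell with it by a smaller amount, from 19.4 and 17.4 CPM to 16.4 and 14.3 CPM, a difference of -0.21 ± 0.05 (edgeR quasi-likelihood, adjusted p = 0.00625). These calls rest on pairing sums within a reaction, since without the replicate block they had adjusted p = 0.999 each. The fibroblast list of this class was also lower under isotype + ABT-317 than under isotype, at 1561 and 1637 CPM against 2034 and 2139 CPM, and fibroblasts held more Socs3 than this class (94.5 and 97.0 CPM). The part of that shift in the Socs3 and Socs6 differences was not tested. Socs3 did not differ past the threshold for CPI minus isotype (-0.10 ± 0.18) or for the interaction (0.46 ± 0.18, edgeR, adjusted p = 0.112). Socs5 was 0.57 ± 0.21 higher under CPI but did not pass (edgeR, adjusted p = 0.0623), with 25.8 and 23.8 CPM from 31 and 21 UMIs against 16.2 and 13.9 CPM under isotype.

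Counted over members, 2 of 7 tested in C1q macrophages were called for CPI minus isotype (Socs1 and Socs3), where 22.2% of the 8302 genes tested passed. 1 of 7 was called for CPI + ABT-317 minus CPI against 17.1% of genes, 1 of 7 for isotype + ABT-317 minus isotype against 1.39%, and 1 of 7 for the interaction against 12.8%, each of them Socs3. In the Ptprc-negative unnamed class, 1 of 7 was called for CPI minus isotype (Socs1) against 17.0% of the 14975 genes tested, and 2 of 7 for isotype + ABT-317 minus isotype (Socs3 and Socs6) against 23.3%. CPI + ABT-317 minus CPI called 0 of 7 by edgeR, none at an unadjusted p under 0.05 and none by DESeq2, against 10.2% of genes. The interaction called 0 of 7 by edgeR, with 1 at an unadjusted p under 0.05 and none by DESeq2, against 10.3%. Members were thus called at a share above that of all genes in some comparisons and below it in others, and counts of 0 to 2 of 7 carry no more than that.

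Cish and Socs2 were too sparse for firm values by treatment. In C1q macrophages, Cish had 5.47 and 7.102 CPM under isotype, 12.9 and 8.04 CPM under CPI from 3 and 2 UMIs, 13.6 and 11.0 CPM under CPI + ABT-317, and 6.68 and 3.31 CPM under isotype + ABT-317. The values with CPI lay above those without it, but the fitted difference of 0.70 ± 0.76 was within its error. Socs6 in C1q macrophages had 43.0 and 24.1 CPM under CPI and 17.6 and 17.8 CPM under CPI + ABT-317, a difference of -0.88 ± 0.46 that did not pass. Socs4, Socs5, and Socs7 had 1 to 4 UMIs per CPI sum in this class, and none of them was called. For CPI minus isotype, Socs4 gave -0.64 ± 0.71, Socs5 0.92 ± 0.73, Socs6 0.20 ± 0.38, and Socs7 -0.46 ± 0.63. For CPI + ABT-317 minus CPI, Socs4 gave 0.83 ± 0.76, Socs5 -1.70 ± 0.92, Socs7 0.30 ± 0.71, and Cish 0.20 ± 0.76. For isotype + ABT-317 minus isotype, these 4 and Socs6 lay between -0.38 for Cish and 0.46 for Socs5.

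In the interaction in C1q macrophages, Socs5 (-2.16 ± 1.03) and Socs6 (-1.08 ± 0.50) had an unadjusted p of 0.0419 and 0.0392 by edgeR and did not pass adjustment, and Socs1 (0.30 ± 0.41), Socs4 (0.83 ± 0.84), Socs7 (0.32 ± 0.78), and Cish (0.58 ± 0.92) were within about their SE. In the Ptprc-negative unnamed class, the members not called lay between -0.10 (Socs3) and 0.72 (Socs2) for CPI minus isotype, between -0.46 (Socs2) and 0.13 (Socs3) for CPI + ABT-317 minus CPI, between -0.03 (Socs5) and 0.35 (Socs2) for isotype + ABT-317 minus isotype, and between -0.81 (Socs2) and 0.46 (Socs3) for the interaction. Socs4 was closest to the threshold, with 0.21 ± 0.08 for isotype + ABT-317 minus isotype (edgeR, adjusted p = 0.0516).

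**Figure D5:**
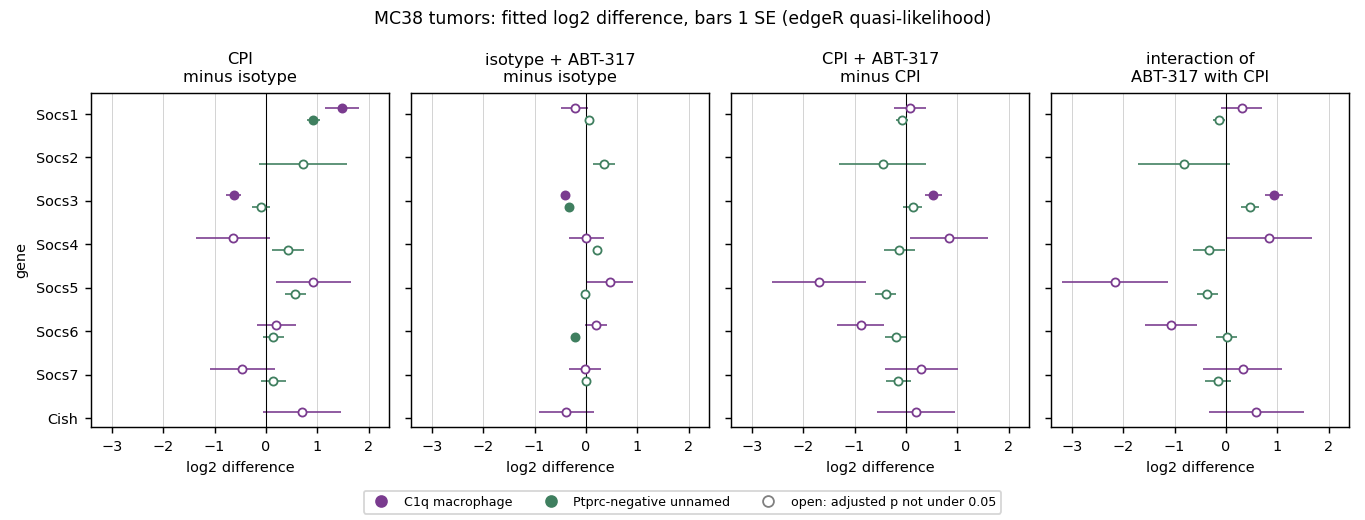
Fitted log2 differences of the members in C1q macrophages and in the Ptprc-negative unnamed class for 3 treatment comparisons and the interaction of ABT-317 with CPI, with bars of 1 SE. Filled points passed an adjusted p of 0.05 by edgeR. Socs1 lies right of 0 for CPI minus isotype in both classes (1.48 and 0.92), and Socs3 in C1q macrophages lies left of 0 for CPI minus isotype (-0.63) and right of it for CPI + ABT-317 minus CPI (0.53).

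The rest of the pathway was read from the same fits. The target lists name genes only, and STAT activity was not measured. In the Ptprc-negative unnamed class, 7 of 8 interferon-induced genes were higher under CPI than under isotype, led by Cd274 (2.32 ± 0.20), Iigp1 (2.09 ± 0.20), and Cxcl9 (1.81 ± 0.26), with a list median of 1.38 against -0.07 for all genes. In that comparison 17.0% of all genes were called. Pias3, which encodes an inhibitor of STAT3, was lower (-1.82 ± 0.44). Stat2 was higher (0.87 ± 0.29) and Stat3 was lower (-0.60 ± 0.18). With CPI + ABT-317, 5 of 8 interferon-induced genes were lower than with CPI, led by Cd274 (-1.17 ± 0.18), Irf1 (-0.75 ± 0.08), and Gbp4 (-0.64 ± 0.17), as was the receptor chain gene Il12rb1 (-1.21 ± 0.37). Of all genes, 10.2% were called there. Socs1 differed there by -0.08 ± 0.11, a value whose direction depended on how hashtags were read. For the interaction, 3 of 8 interferon-induced genes were lower, led by Cd274 (-1.20 ± 0.20) and Cxcl10 (-0.70 ± 0.10), whereas Il2rg (0.95 ± 0.29) and Rbx1 (0.60 ± 0.06) were higher. The interaction called 10.3% of all genes.

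With isotype + ABT-317 in that class, where Socs3 and Socs6 were lower, 4 of 7 STAT3 targets were lower and 1 was higher, with Fos at -0.38 ± 0.06 and Junb at -0.28 ± 0.04, and Stat3 itself was lower (-0.30 ± 0.05). Of 8 interferon-induced genes, 5 were lower, led by Cxcl9 (-0.40 ± 0.10), and 1 was higher. 4 of 21 receptor chains were lower, led by Il10ra (-1.12 ± 0.31) and Csf2ra (-0.81 ± 0.28). Among 10 other negative regulators, 5 were lower and 2 were higher, with Usp18, an interferon-induced inhibitor of the type I interferon receptor, at 0.46 ± 0.08. These counts stand against 23.3% of all genes called in this comparison, and without the replicate block no gene was called in it.

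In C1q macrophages, 1 of 8 interferon-induced genes was higher under CPI than under isotype (Irf1, 1.31 ± 0.17) and 2 were lower (Cxcl10, -1.17 ± 0.12, and Tap1, -0.96 ± 0.31). The counts of this comparison stand against 22.2% of all genes called. The STAT3 targets Junb (0.71 ± 0.08), Fos (0.58 ± 0.08), and Pim1 (0.54 ± 0.12) were higher, 3 of 7 in that list. Of 19 receptor chains, 5 were higher, led by Csf2rb (1.56 ± 0.21) and Il6st (1.34 ± 0.36), which encodes gp130, and 2 were lower. The survival genes Bcl2 (-1.99 ± 0.56) and Bcl2l1 (-1.32 ± 0.34), both STAT5 targets, were lower, and Pim1, which is also in the STAT5 list, was higher, so that 1 of 6 tested genes of that list was higher and 2 were lower. Jak1, the target of ABT-317, was higher (1.13 ± 0.17), and 2 of 5 genes of the SOCS box ligase were lower, Elob (-0.50 ± 0.11) and Rbx1 (-0.47 ± 0.13).

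For CPI + ABT-317 minus CPI in C1q macrophages, 6 of 8 interferon-induced genes were higher, led by Cxcl9 (2.01 ± 0.15) and Tap1 (1.83 ± 0.30), as were Bcl2 (2.13 ± 0.59) and Bcl2l1 (1.49 ± 0.36). The counts of this comparison stand against 17.1% of all genes called. This comparison and CPI minus isotype rest on CPI sums of 118 and 114 macrophages. These sums had a lower depth per barcode and shifted marker lists, as given above. The part of these in the pathway differences was not tested. Of the STAT3 targets, 3 of 7 were lower, Fos (-1.20 ± 0.09), Junb (-0.85 ± 0.08), and Pim1 (-0.52 ± 0.13), in the comparison in which Socs3 was higher. In the STAT5 list, 2 of 6 were higher (Bcl2 and Bcl2l1) and 1 was lower (Pim1). Jak1 was lower (-1.11 ± 0.19), and 3 of 5 genes of the SOCS box ligase were higher, with Elob at 0.46 ± 0.12. For isotype + ABT-317 minus isotype, where 1.39% of all genes were called, Fos (-0.53 ± 0.07) and Junb (-0.30 ± 0.07) were lower. Socs3 was lower there as well, and a link to these genes was not tested. Of 8 interferon-induced genes, Cxcl9 (-0.42 ± 0.11) was lower and Cxcl10 (0.39 ± 0.08) higher. The interaction gave 6 of 8 interferon-induced genes higher, led by Cxcl9 (2.43 ± 0.19), Tap1 (1.85 ± 0.34), and Iigp1 (1.39 ± 0.33), beside Bcl2 (2.15 ± 0.63). It called 12.8% of all genes.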

How the data were processed

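The authors deposited raw UMI counts of genes by barcodes, made with Cell Ranger and not normalized, as a matrix for every reaction. The TDLN headers name version 7.1.0 and the MC38 headers 8.0.1, whereas the submitters' processing notes name version 3.1.0 and the build GRCm38 (mm10). Depth ranged from 18055617 to 435031691 gene UMIs per reaction, and thin classes carry wide intervals. A deposited key ties each hashtag to a treatment. Barcodes with at least 200 genes and under 10% mitochondrial UMIs were kept. The study's upper limit of 2500 genes was an alternative only, because it would keep 94.3% and 89.5% of CPI barcodes but 15.0% to 55.9% of those of the other treatments.

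A hashtag was called present at a posterior of 0.5 in a fit of 2 components, and treatments used barcodes with exactly 1. Classes were gates of at least 3 UMIs of a marker list (8 in TDLNs, with 0 of the opposite lineage; 2 for the NK and Treg lists; 3 for cytotoxic genes) and a level floor, the gate markers being subsets chosen after seeing the data. The Ptprc-negative unnamed class required 0 Ptprc UMIs, at least 3000 UMIs, and marker lists under 500 CPM (2000 for collagens). Barcodes passing several gates were dropped, and no doublet caller was run. Members were never used in a gate. Members and lists were chosen with earlier results of these data known. The members that passed the low-count filter are given in each comparison, and pathway genes are counted by list, with up to 4 named per comparison, those of largest absolute log2 difference among the called. Further pathway genes were chosen after their values were seen. 1 pathway gene is not reported here.

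Counts were summed per class and reaction, or per treatment and reaction within a class, and sums under 20 barcodes were left out of tests, as was all of TDLN reaction 3. Tests used edgeR 4.0.16 (TMM, filterByExpr, quasi-likelihood, limma 3.58.1, R 4.3.3) with the class or treatment and the reaction as terms, and Benjamini-Hochberg adjustment over all genes tested at 0.05. The reaction is a block because sums of 1 number come from 1 library. DESeq2 1.42.0 was an alternative. Both were tested on simulated data. SE is the absolute log2 difference divided by the square root of F. Likeness used genes with a mean of at least 10 CPM and a pseudocount of 1 CPM. Other steps used Python 3.11.15, numpy 2.4.6, scipy 1.17.1, pandas 2.3.3, and matplotlib 3.10.9. A count of 0 was given a limit of 3 counts. NK minus CD8 T cells and keratin-positive minus fibroblast could not be fitted (under 20 barcodes). Alternatives were RLE normalization, no low-count filter, no replicate block, fewer than 2500 genes, doubled gate minimums, leading hashtags (by 1 natural log unit), leaving out each reaction, and, added after seeing the data, single-hashtag barcodes for class comparisons and UMI windows (1500 to 6000 for C1q macrophages, 3000 to 20000 for the Ptprc-negative class) or no T list UMI for treatments.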

Additional observations from a re-analysis of the deposited data

Results flagged for a closer look

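The effect of ABT-317 on Socs3 in C1q macrophages differed between mice given CPI and mice given isotype by 0.93 on the log2 scale, which the interaction term of the edgeR quasi-likelihood fit tested. The CPI sums held 58 and 48 UMIs of Socs3, at a lower depth per barcode than the other treatments. Both differences behind the interaction lost their call under some alternatives, given below. Socs4 had opposite signs in the 2 classes in each reaction, although in reaction 1 the macrophage value for CPI minus isotype was close to 0. For CPI minus isotype it was -0.64 in C1q macrophages (-0.0047 and -1.72 in reactions 1 and 2) and 0.43 in the Ptprc-negative unnamed class (0.50 and 0.31), and for CPI + ABT-317 minus CPI it was 0.83 and -0.13. The difference between the classes was not tested, and the CPI sums of C1q macrophages held only 3 and 1 UMIs of Socs4.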

How the results depend on the processing

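Of the values of called members under alternatives, 99 were labeled as kept, 10 lost the call, and 3 moved. These counts include values from leaving out 1 reaction, which have no test and so no side of the threshold. Such a value was labeled as kept if its sign held and it lay within the SD of the values left by omitting each reaction. That rule is easily met, so 99 is not a count of tests passed. Without the replicate block, adjusted p rose to 0.0713 (0.54) for Socs3 in C1q macrophages for CPI + ABT-317 minus CPI, to 0.919 (-0.40) for isotype + ABT-317 minus isotype, and to 0.999 in the Ptprc-negative unnamed class for Socs3 (-0.33) and Socs6 (-0.21), and no other called member lost its call. DESeq2 lost Cish in Arg1 myeloid minus C1q macrophage (1.12, adjusted p = 0.103) and Socs3 in C1q macrophages for CPI + ABT-317 minus CPI (0.52, 0.0586) and isotype + ABT-317 minus isotype (-0.39, 0.117). Single-hashtag barcodes lost Cish (1.09, 0.0825), and leading hashtags (0.27) and the UMI window (0.46) lost Socs3 for CPI + ABT-317 minus CPI. Socs1 reversed in the Ptprc-negative unnamed class with leading hashtags, from -0.08 to 0.38 for CPI + ABT-317 minus CPI and from -0.14 to 0.32 for the interaction. The cause was not tested. Leaving out 1 reaction leaves values with no test: Socs2 5.11 in mregDC minus cDC without reaction 1 (none without reaction 2), Cish 0.95 to 1.27, Socs2 in fibroblast minus endothelial -2.39 to -1.74, Socs1 in B minus CD4 T -2.94 to -1.99, and for treatments Socs1 1.13 to 1.65 and 0.72 to 1.08, Socs3 -0.91 to -0.40, 0.47 to 0.68, -0.42 to -0.39, 0.89 to 1.06, and -0.41 to -0.26, and Socs6 -0.22 to -0.19, in the order of the report.

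Counts of called genes moved by over 1.5 times in 23 of 115 cases. For classes, these were Tregs minus CD8 T (58; 105 without the filter, 27 with single hashtags), neutrophil minus monocyte (554; 305 under 2500 genes, 184 with single hashtags), C1q macrophage minus monocyte (382; 695 by DESeq2, 1119 without the filter), Arg1 myeloid minus C1q macrophage (1010; 1664 without the filter, 377 without the block), TDLN Treg minus CD4 T (166; 61 without the block), and cytotoxic minus naive CD8 T (54; 18 by DESeq2, 112 without the filter, 12 without the block). In C1q macrophages, they were CPI + ABT-317 minus CPI (1421; 844 in the UMI window), isotype + ABT-317 minus isotype (115; 39 by DESeq2, 9 without the block, 44 in the window), and the interaction (1066; 550 without the block, 595 in the window). In the Ptprc-negative unnamed class, the 4 comparisons called 2549, 1528, 3493, and 1546 genes with the block and 689, 136, 0, and 32 without it, and DESeq2 called 1559 in the third. No value was obtained for doubled gates in Treg minus CD8 T, mregDC minus cDC, neutrophil minus monocyte, and all TDLN comparisons, for fewer than 2500 genes and single hashtags in mregDC minus cDC, or for fewer than 2500 genes and the window in the Ptprc-negative unnamed class. Depth limits the thin classes, where single UMIs move a level.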
